A study of Mus musculus with 2 samples.

Results

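The genes described here encode the enzymes that add or remove methyl and acetyl groups on histones, with the scaffold proteins that hold them in complexes. They were the rows of the deposited tables whose gene symbol was one of 53 named genes, and all 53 were found among 38926 gene symbols in both libraries. By role they comprised 17 methyl writers (methyltransferases), 3 partner subunits of Polycomb repressive complex 2 (PRC2), 13 methyl erasers (demethylases), 8 acetyl writers (acetyltransferases), 9 acetyl erasers (deacetylases) and 3 corepressor scaffolds. The samples were pleuroperitoneal folds (PPFs), the paired embryonic folds that give rise to the connective tissue of the diaphragm. Both libraries came from wild-type mouse embryos of mixed 129s/SvlmJ-C57/BL6J background at embryonic day 12.5. Each library pooled 2 pairs of folds dissected by hand after removal of the heart and lungs, and polyadenylated RNA was sequenced with a stranded kit. These libraries form a single group, so the comparisons that follow are between genes within a library and between replicate 1 and replicate 2. The labels do not say whether separate litters were used, so the spread between them may be technical.

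Histone H3 carries methyl groups on several lysines. Methylation of lysine 4 (H3K4) marks active promoters and enhancers, that of lysine 36 (H3K36) marks transcribed gene bodies, that of lysine 79 (H3K79) also accompanies transcription, and that of lysines 27 (H3K27) and 9 (H3K9) accompanies silencing by Polycomb and by heterochromatin. Acetylation loosens chromatin and marks active regulatory sites, and deacetylases work within corepressor complexes. Several of these genes are mutated in human developmental syndromes, such as KMT2D and KDM6A in Kabuki syndrome.

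The library totals were 26370253 counts in replicate 1 and 23255957 counts in replicate 2. The 8 markers of PPF connective tissue were all at 10 TPM or more in both libraries (TPM, a transcript measure, is the count divided by gene length and scaled to the library). Pdgfra was the highest of them, at 360 TPM in replicate 1 and 377 TPM in replicate 2. Of 6 muscle markers 5 were at 10 TPM or more, with Myog at 648 and 649 TPM, and erythroid markers summed to 5579 and 5161 TPM. Liver markers summed to 111 TPM in replicate 1 against 291 TPM in replicate 2, neuronal markers to 19.7 against 45.4 TPM, and urogenital markers to 33.7 against 13.4 TPM. Lung epithelial markers summed to 4.31 and 4.79 TPM, and Nkx2-1 among them was at 0 counts in both libraries, where 3 counts would be 0.114 and 0.129 CPM, a count on a scale common to both library sizes. Past 1.5-fold with an adjusted p under 0.05, 7 of 8 liver and 5 of 8 neuronal markers were lower in replicate 1 and 5 of 7 urogenital markers were higher, where 2.35% of all tested genes met both criteria. In such bulk RNA, fewer cells of a type and less RNA per cell cannot be told apart.

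The level of Hdac1 depends on how shared reads were counted, and its sequence shows the near-identical copy involved. Hdac1, which encodes a class I deacetylase and lies on chr4:129516104-129542713 (GRCm38, minus strand, 12 exon blocks), shared 35.5% of its 50-base words with other annotated genes, nearly all of them pseudogenes (35.0%). The largest sharer was Gm10093, a processed pseudogene on chromosome 17, with 1121 of the 3536 words. The first 120 bases of the Hdac1 coding sequence are shown with the matching stretch of Gm10093 and with that of its paralog Hdac2, which begins at base 4 of the Hdac2 coding sequence. They were read from GENCODE M21 transcripts, and capitals mark bases that differ from Hdac1.
Hdac1: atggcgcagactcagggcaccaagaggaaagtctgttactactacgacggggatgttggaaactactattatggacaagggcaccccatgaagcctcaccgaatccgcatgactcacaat
Gm10093: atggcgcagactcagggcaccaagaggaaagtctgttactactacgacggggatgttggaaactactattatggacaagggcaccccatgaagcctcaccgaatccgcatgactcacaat
Hdac2: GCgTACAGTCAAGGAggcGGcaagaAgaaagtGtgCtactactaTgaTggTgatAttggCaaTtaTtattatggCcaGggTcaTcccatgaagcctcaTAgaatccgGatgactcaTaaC
The Gm10093 stretch held 0 differences, and over 1444 aligned columns of the 1446-base Hdac1 coding sequence its identity was 99.4%. The Hdac2 stretch matched at 85 of 120 bases (70.8%), and no 50-base word was shared between Hdac1 and Hdac2. Gm10093 was listed with 183 counts in replicate 1 and 134 counts in replicate 2. How reads that fit several places were counted is not stated, so the level of Hdac1 is uncertain, while no word of Hdac2 was found in any other gene. The paralogs Ezh2 and Ezh1, the alternative catalytic subunits of PRC2, stood 7.52-fold and 7.23-fold apart in level. Their promoter windows are shown next, and whether the promoters bear on these levels was not tested. Each window runs 250 bases before to 50 bases after the RefSeq start (GRCm38.p6), read along the gene's strand. Capitals mark the single match to an E2F motif.
Ezh2, chr6:47594981-47595280, minus strand: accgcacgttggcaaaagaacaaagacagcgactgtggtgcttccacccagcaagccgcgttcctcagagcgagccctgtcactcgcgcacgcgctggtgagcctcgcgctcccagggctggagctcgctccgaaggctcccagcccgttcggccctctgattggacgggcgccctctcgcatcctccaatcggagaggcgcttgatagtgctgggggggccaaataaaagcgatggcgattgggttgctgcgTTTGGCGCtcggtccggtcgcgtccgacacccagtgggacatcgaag
Ezh1, chr11:101226414-101226713, minus strand: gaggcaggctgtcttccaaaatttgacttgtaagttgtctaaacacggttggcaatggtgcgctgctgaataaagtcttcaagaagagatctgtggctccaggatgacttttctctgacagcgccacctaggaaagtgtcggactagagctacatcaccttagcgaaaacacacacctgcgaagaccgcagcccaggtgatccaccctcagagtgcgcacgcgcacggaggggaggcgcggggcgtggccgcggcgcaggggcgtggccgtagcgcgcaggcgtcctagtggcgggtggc
The Ezh2 window held 31 CpG dinucleotides and the Ezh1 window 23. RefSeq windows were found for 41 of the 53 members (59 windows), and those without an entry were Ash1l, Hdac1, Hdac3, Kat6a, Kdm2a, Kdm3b, Kdm4b, Kdm5a, Kdm6b, Kmt2b, Nsd1 and Setd1b. The median member window held 25 CpG against 14 in 20148 windows of all protein-coding genes, and its GC content was 62.7% against 57%. The E2F motif, searched on both strands as TTTCGCGC or TTTGGCGC, was in 1 member window (1.69%) and in 1.05% of protein-coding windows. The ETS motif CCGGAAG was in 10.2% of member windows against 11.9%, and CCAAT was in 35.6% against 37.8%. The NRF1 core CGCATGCG was in 0 member windows against 2.62% of protein-coding windows. A match describes letters only.

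Most of the histone-modifier genes were expressed at middle to high levels. All 53 were at 1 TPM or more in both libraries, and 50 were at 10 TPM or more in both, against 46.6% of 20386 protein-coding genes. The exceptions were Hdac9, at 7.22 TPM in replicate 1 and 9.83 TPM in replicate 2, Ezh1 at 9.63 and 9.93 TPM, and Kat2b at 9.76 and 10.1 TPM. The first 2 fell short in both libraries, and Kat2b missed the limit in replicate 1 alone.

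Together the members took 0.727% of the counts in replicate 1 and 0.771% in replicate 2, and they summed to 3143 and 3340 TPM. Their median was 59.2 TPM in replicate 1 and 63.3 TPM in replicate 2 (61.2 ± 2.88, mean ± SD, n = 2), against 26.7 and 27.2 TPM for the 13000 protein-coding genes at 1 TPM or more in both. Of the members, 40 lay above that wider median and 46 averaged between 20 and 120 TPM. The highest member was 21.6-fold above the lowest. Of 52 neighbouring pairs in the order of mean TPM, 9 had ranges over the libraries that did not overlap. Such ranges pool both libraries, so they can overlap where the order of the genes was the same in each. Setd2 over Kdm6b is an example, at 67.4 against 67.0 TPM in replicate 1 and 74.9 against 74.4 TPM in replicate 2. The median coefficient of variation between libraries was 5.64% for the members and 5.08% for the expressed protein-coding genes.

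**Figure D1:**
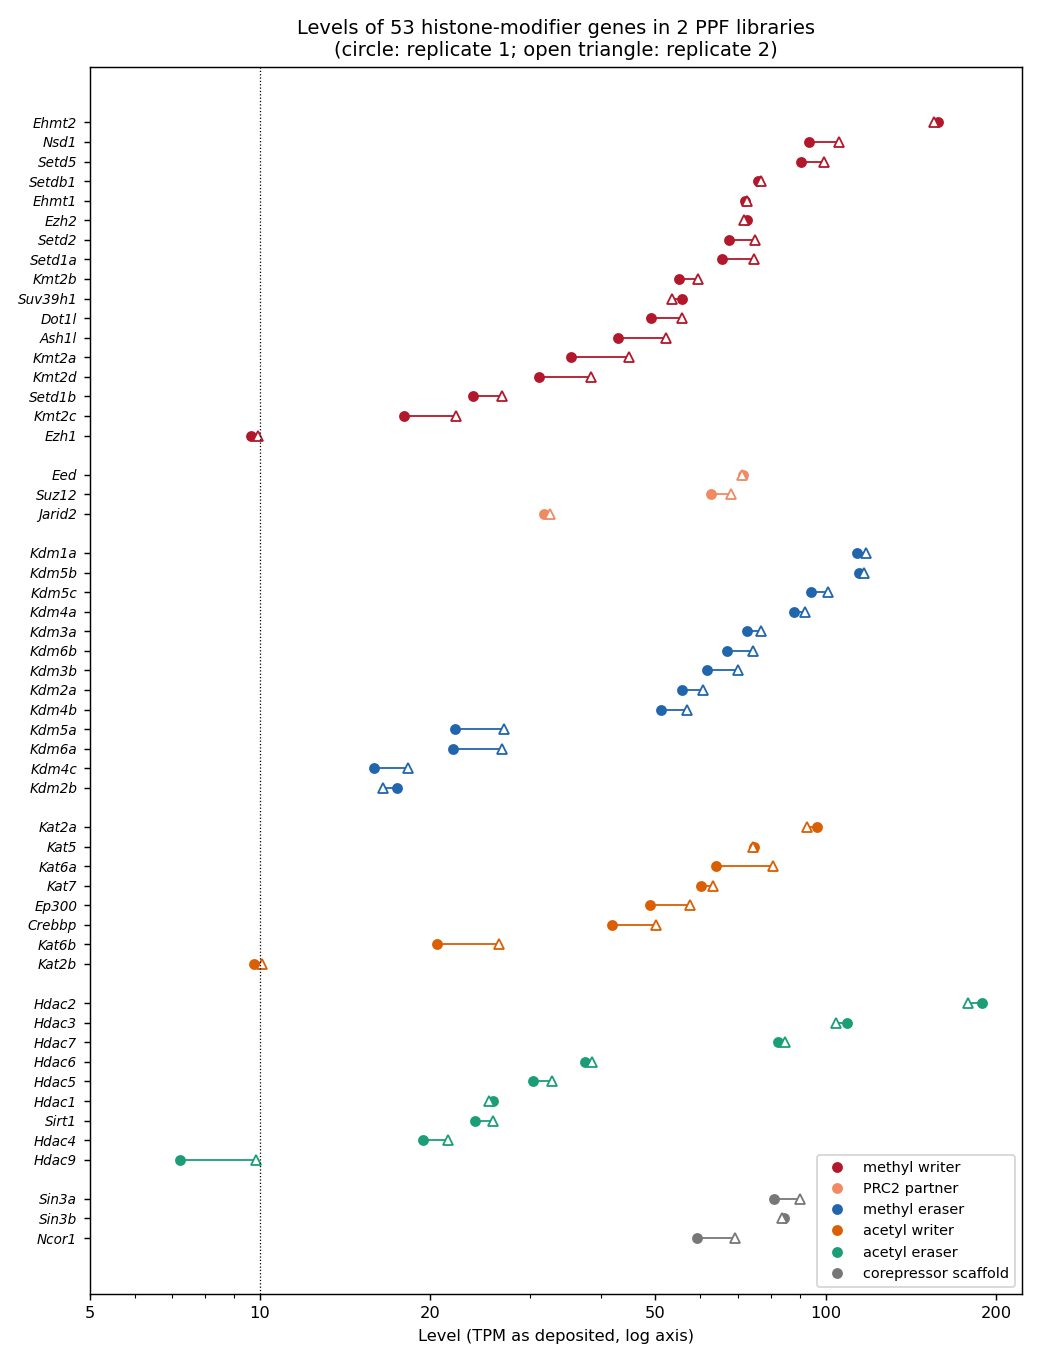
Level of each of the 53 genes in TPM as deposited (log axis) by role, with a filled circle for replicate 1 and an open triangle for replicate 2; the dotted line marks 10 TPM. Most genes sit between 20 and 120 TPM, with Hdac2 (189 and 179 TPM) and Ehmt2 (158 and 156 TPM) above and Hdac9, Ezh1 and Kat2b at the low end.

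Among the methyl writers, the H3K4 enzymes were spread over a moderate range. Setd1a, a catalytic subunit of the SET1 COMPASS complexes that trimethylate promoters, was at 65.5 TPM in replicate 1 and 74.6 TPM in replicate 2, and its partner paralog Setd1b at 23.8 and 26.8 TPM. Kmt2b and Kmt2a, the MLL enzymes that act at CpG-rich promoters and developmental genes such as the Hox clusters, were at 55.1 and 59.5 TPM and at 35.5 and 44.9 TPM. Kmt2d and Kmt2c, which monomethylate enhancers, were at 31.1 and 38.4 TPM and at 18 and 22.2 TPM. In scaled counts these genes were lower in replicate 1, a direction that 47.2% of all tested genes had. Among expressed protein-coding genes over 12000 bases, as Kmt2a, Kmt2c and Kmt2d are, the share was 86.2%. In the test between libraries given below, 5 of the 6 passed an adjusted p under 0.05, Kmt2b being the exception. By that measure 8.85% of all tested genes were lower, and 17.8% of those with a mean of at least 1000 counts, a depth that all 6 had.

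With the deposited lengths, the H3K36 writers were led by Nsd1, with Setd2 near the level of Setd1a and Ash1l between Kmt2b and Kmt2a. Nsd1, an H3K36 dimethyltransferase mutated in human Sotos syndrome, was at 93.3 TPM in replicate 1 and 105 TPM in replicate 2 and had the most counts of any member (10124 and 9796). Setd2, the enzyme that trimethylates H3K36, was at 67.4 and 74.9 TPM. Ash1l, a Trithorax-group H3K36 enzyme, was at 43.0 and 52.1 TPM. The libraries kept these 3 in the same order. With GENCODE M21 exon lengths Nsd1 was at 68.2 and 77.1 TPM, close to Setd2 at 66.1 and 73.4 TPM. Ash1l was then at 32.6 and 39.6 TPM, below Kmt2a. Dot1l, the H3K79 methyltransferase, was at 49.0 and 55.7 TPM. Setd5, a SET-domain protein whose histone target is debated and which was assigned no mark here, was at 90.4 and 99.2 TPM, or 61.5 and 67.5 TPM with M21 lengths.

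With the deposited lengths, 3 core subunits of PRC2 were close in level and Ezh1 was far lower. Ezh2, the main catalytic subunit in dividing embryonic cells, was at 72.5 TPM in replicate 1 and 71.8 TPM in replicate 2, Eed, which binds the H3K27 mark, at 71.5 and 71.1 TPM, and Suz12, the scaffold subunit, at 62.7 and 68.0 TPM. Ezh1 was at 9.63 and 9.93 TPM. Jarid2, an accessory subunit that helps recruit the complex, was at 31.7 and 32.6 TPM. The closeness of Ezh2 and Eed depends on the gene length used, since with GENCODE M21 exon lengths Ezh2 was at 67.2 and 66.6 TPM and Eed at 41.4 and 41.2 TPM. Here and below, values with M21 lengths keep the deposited counts and add no reads from further exons. They also keep the deposited scaling, with no new lengths for other genes and no rescaling to a fixed sum. By this calculation a longer M21 length can only lower a value, and the result is not a full TPM on M21 lengths.

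The H3K9 writers included the highest methyl writer. Ehmt2 (G9a), which dimethylates H3K9 in euchromatin, was at 158 TPM in replicate 1 and 156 TPM in replicate 2, and its obligate partner Ehmt1 (GLP) at 71.9 and 72.7 TPM. Setdb1, which trimethylates H3K9 and silences retroelements, was at 75.9 and 76.7 TPM. Suv39h1, which trimethylates H3K9 at pericentromeric repeats, was at 55.6 and 53.5 TPM. Each of these 4 genes had a coefficient of variation of 2.74% or less.

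Among the methyl erasers, 3 of the 4 H3K4 demethylases had the highest levels with the deposited lengths. Kdm1a (LSD1), the flavin-dependent enzyme that removes mono- and dimethylation, was at 114 TPM in replicate 1 and 118 TPM in replicate 2. Kdm5b, a JmjC enzyme that removes trimethylation, was at 114 and 117 TPM, and its X-linked paralog Kdm5c at 94.1 and 101 TPM. Kdm5a was lower, at 22.1 and 27 TPM. With M21 lengths Kdm5b was at 53.6 and 54.7 TPM, below Kdm4a at 87.9 and 92.0 TPM and Kdm6b at 67.0 and 74.4 TPM. The ranges of Kdm1a and Kdm5b overlapped, and Kdm5a was below Kdm5c in both libraries.

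The other methyl erasers differed within the Kdm4, Kdm2 and Kdm6 families, while Kdm3a and Kdm3b were close. Of the H3K9 enzymes, Kdm3a was at 72.6 TPM in replicate 1 and 76.7 TPM in replicate 2, and Kdm3b at 61.8 and 69.9 TPM. Of the Kdm4 family, which acts on both H3K9 and H3K36, Kdm4a was at 87.9 and 92.0 TPM, Kdm4b at 51.2 and 56.9 TPM and Kdm4c at 15.9 and 18.3 TPM. Kdm2a, an H3K36 demethylase that binds CpG islands, was at 55.7 and 60.6 TPM, against 17.5 and 16.5 TPM for Kdm2b, which links a variant Polycomb complex to such islands. Of the H3K27 demethylases, Kdm6b (JMJD3) was at 67.0 and 74.4 TPM and the X-linked Kdm6a (UTX) at 22.0 and 26.7 TPM.

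The acetyl writers were led by Kat2a (GCN5), the catalytic subunit of SAGA, at 96.7 TPM in replicate 1 and 92.7 TPM in replicate 2. Kat5 (TIP60) was at 74.5 TPM in each library, Kat6a (MOZ) at 64.1 and 80.5 TPM, and Kat7 (HBO1) at 60.1 and 63.3 TPM; all are MYST-family enzymes. The enhancer coactivators Ep300 and Crebbp were at 48.9 and 57.5 TPM and at 41.9 and 50.1 TPM. Kat6b, the paralog of Kat6a, was at 20.6 and 26.5 TPM. Kat2b (PCAF), the paralog of Kat2a, was the lowest writer of acetyl groups.

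The acetyl erasers had the widest spread of any role. Hdac2 (chr10:36974544-37001889, plus strand, 14 exon blocks), a class I deacetylase of the Sin3, NuRD and CoREST complexes, was the highest member of all, at 189 TPM in replicate 1 and 179 TPM in replicate 2. Hdac3, the deacetylase of the NCoR complex, was at 109 and 104 TPM, and Hdac1 was listed at 25.8 and 25.4 TPM. Of the class IIa deacetylases, which shuttle between nucleus and cytoplasm and repress Mef2 factors in muscle, Hdac7 was at 82.2 and 84.9 TPM, Hdac5 at 30.4 and 32.9 TPM and Hdac4 at 19.4 and 21.5 TPM. Hdac9, the remaining one, was the lowest member of all. Hdac6, a largely cytoplasmic tubulin deacetylase, was at 37.5 and 38.5 TPM, and the NAD-dependent Sirt1 at 24.0 and 25.8 TPM. The scaffolds Sin3a, Sin3b and Ncor1, on which deacetylases assemble, were at 81.0 and 90.0 TPM, at 84.3 and 83.9 TPM, and at 59.2 and 69.0 TPM.

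Methyl writers and methyl erasers did not differ clearly in level, and the sign of the difference depended on how it was summarised. The median writer was at 55.6 TPM in replicate 1 and 59.5 TPM in replicate 2, against 61.8 and 69.9 TPM for the median eraser. The difference of median log2 TPM, writers minus erasers, was -0.15 in replicate 1 and -0.23 in replicate 2 (-0.19 ± 0.06, mean ± SD, n = 2). The mean level per gene was 59.8 and 64.4 TPM for writers and 61.2 and 65.7 TPM for erasers. With 17 writers against 13 erasers, the summed level was higher for writers in both libraries, at 1016 and 1094 TPM against 796 and 854 TPM, or 1.28-fold in each. In counts the writers' sum was 80307 in replicate 1 and 76168 in replicate 2, against 48003 and 44333 for the erasers, which is 1.67-fold and 1.72-fold. The median writer was 9596 bases long in the deposited tables against 7110 for the median eraser, and a longer transcript yields more counts at the same TPM. When GENCODE M21 exon lengths replaced the deposited lengths and the counts were kept as deposited, the difference of medians was 0.19, so the direction turned. These genes are not replicates of one another, and no test between the roles was made.

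Acetyl writers had a higher median than acetyl erasers in both libraries but a lower sum. The median writer was at 54.5 TPM in replicate 1 and 60.4 TPM in replicate 2, against 30.4 and 32.9 TPM for the median eraser, a difference of median log2 TPM of 0.84 and 0.88 (0.86 ± 0.03, mean ± SD, n = 2). The sums were 417 and 455 TPM for writers and 525 and 522 TPM for erasers, and Hdac2 alone made up 36% and 34.3% of the eraser sum. In counts the writers' sum was 21578 in replicate 1 and 21336 in replicate 2, against 22033 and 18935 for the erasers, so that the side with more counts changed between libraries. With GENCODE M21 lengths the difference of medians was 0.24.

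Sorted by the residue acted on, the balance of summed TPM varied. For H3K4 the 6 writers summed to 229 TPM in replicate 1 and 266 TPM in replicate 2, against 344 and 362 TPM for the 4 erasers. For H3K9 the order was the other way, with 362 and 359 TPM for 4 writers against 289 and 314 TPM for 5 erasers. For H3K27 the writers Ezh1 and Ezh2 summed to 82.1 and 81.7 TPM, against 88.9 and 101 TPM for Kdm6a and Kdm6b. For H3K36 the 3 writers summed to 204 and 232 TPM, against 228 and 244 TPM for 5 erasers. Among the members, the H3K36 erasers were thus higher in each library, although the ranges over both libraries overlapped. These sums hold the members alone, and the order at a residue can depend on which enzymes are counted. Whsc1 (also named Nsd2), at 52.4 and 55.1 TPM, is not among the H3K36 writers summed here. Phf2, another methyl eraser at 94.2 and 97.9 TPM, is in none of the eraser sums. Kdm4a, Kdm4b and Kdm4c count under both H3K9 and H3K36. In counts, the H3K36 balance favoured the writers, with 20262 and 19805 counts against 14914 and 13615 for the erasers. The H3K4 balance was reversed as well, with 23808 and 24211 for the writers against 20856 and 19012 for the erasers, and the median H3K4 writer was 13772 bases long against 7435 for the median H3K4 eraser.

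**Figure D2:**
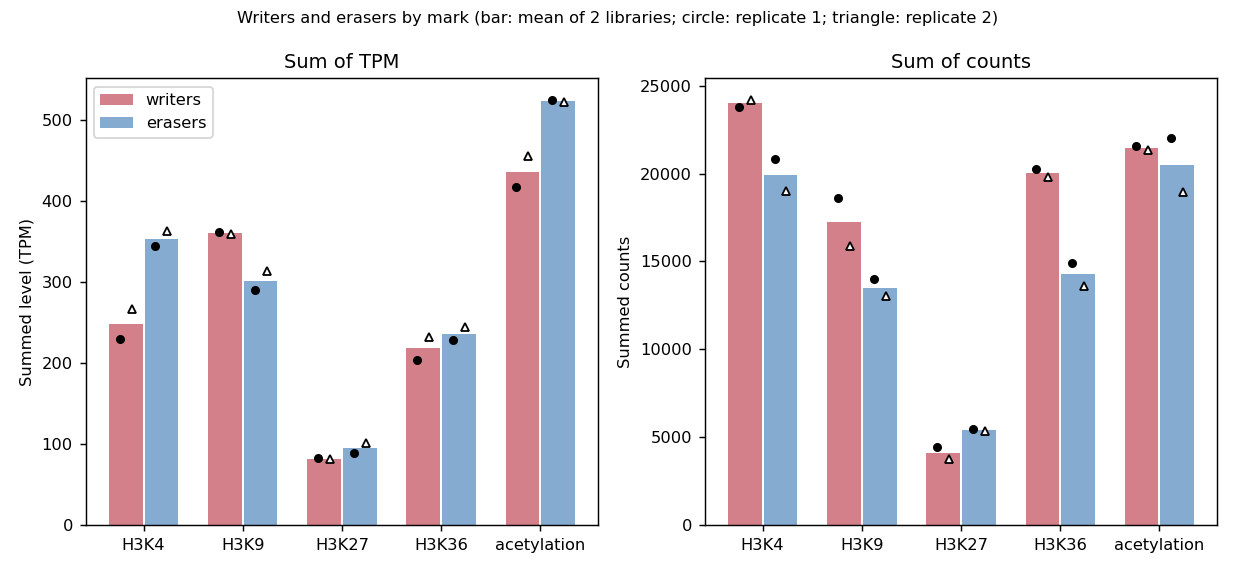
Summed TPM (left) and summed counts (right) of writers and erasers by residue and for acetylation; bars are the mean of 2 libraries, with a circle for replicate 1 and a triangle for replicate 2. H3K4 erasers exceed H3K4 writers in TPM (344 and 362 against 229 and 266 for writers) but not in counts. Among the members, H3K36 erasers exceed H3K36 writers in TPM in each library, with ranges that overlap. Enzymes outside the 53 members are not counted.

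Paralogs with related activity were mostly unequal in level. Of 25 pairs within families, 20 differed by at least 1.5-fold in the same direction in both libraries, and 24 had the same order in both. No pair shared a single 50-base word, so reads of 50 bases or longer that match exactly could not have been split between the paralogs of any pair.

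The largest contrast was Hdac7 over Hdac9, at 11.4-fold in replicate 1 and 8.63-fold in replicate 2, log2 ratios of 3.51 and 3.11 that were 4.95 and 4.55 with M21 lengths. Kat2a over Kat2b followed at 9.90-fold and 9.18-fold, Ezh2 over Ezh1 at 7.52-fold and 7.23-fold, and Hdac2 over Hdac1 at 7.32-fold and 7.05-fold. With the Gm10093 counts added to Hdac1 the last ratio was 5.90 and 5.82, and with Hdac1 length reduced to its unshared words it was 4.73 and 4.54, so Hdac2 was the higher of the pair under each. Within the histone demethylases, Kdm4a over Kdm4c was 5.53-fold and 5.04-fold, and Kdm5b over Kdm5a 5.18-fold and 4.32-fold, the last pair falling to log2 ratios of 1.28 and 1.02 with M21 lengths. Kdm2a over Kdm2b was 3.19-fold and 3.67-fold, and Kdm6b over Kdm6a 3.05-fold and 2.78-fold. Among the acetyl and methyl writers, Kat6a over Kat6b was 3.11-fold and 3.04-fold, Setd1a over Setd1b 2.75-fold and 2.79-fold, and Ehmt2 over Ehmt1 2.20-fold and 2.14-fold.

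A few paralogs were nearly matched. Ep300 over Crebbp was 1.17-fold in replicate 1 and 1.15-fold in replicate 2, Kdm3a over Kdm3b 1.18-fold and 1.10-fold, and Kdm5b over Kdm5c 1.22-fold and 1.16-fold. Kmt2b over Kmt2a was 1.55-fold in replicate 1 and 1.32-fold in replicate 2, so it passed 1.5-fold in replicate 1 alone. Sin3a over Sin3b was 0.96 and 1.07, the one pair whose order changed between libraries. With M21 lengths that pair was no longer matched, at a log2 ratio of 0.72 in replicate 1 and 0.88 in replicate 2, because the M21 length of Sin3b was 1.71 times the deposited one. In counts not divided by length, 2 pairs were in the opposite order, Kmt2b with Kmt2a and Kdm3a with Kdm3b. With M21 lengths 1 pair was, Kdm5b with Kdm5c.

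**Figure D3:**
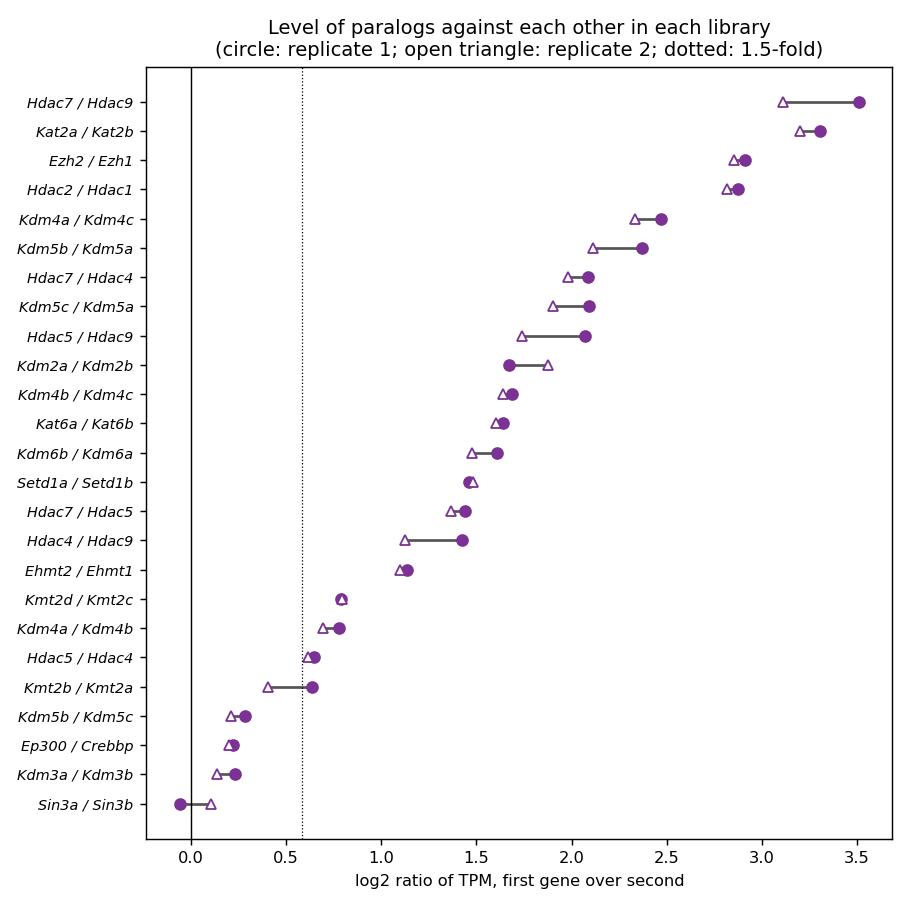
Log2 ratio of TPM of the first paralog over the second in each library, with a filled circle for replicate 1, an open triangle for replicate 2 and a dotted line at 1.5-fold. The ratio is past the line in both libraries for 20 of 25 pairs, from Hdac7 over Hdac9 down to Hdac5 over Hdac4, and Sin3a over Sin3b straddles equal levels.

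The gene length behind a TPM value limits some of these levels. Of the 53 members, 29 had the same length as the M21 exon union, and for 10 the M21 length was over 1.5 times the deposited one. The ratio was 3.32 for Hdac9, 2.50 for Hdac4, 2.13 for Kdm5b, 1.98 for Kdm3b and 1.80 for Crebbp. With M21 lengths and the counts as deposited, Hdac9 would be at 2.18 TPM in replicate 1 and 2.96 TPM in replicate 2, and Hdac4 at 7.76 and 8.59 TPM. Reads in exons outside the deposited models are not in these counts, so such values may be too low. Kdm3a would be at 43.4 and 45.9 TPM, Kdm3b at 31.2 and 35.3 TPM, Ep300 at 30.0 and 35.3 TPM, and Crebbp at 23.2 and 27.8 TPM. Kat5 would be at 42.7 and 42.6 TPM and Sin3b at 49.3 and 49.0 TPM. For 3 members (Setd1b, Jarid2 and Hdac4) the deposited start and end were closer together than the deposited length, so those positions do not span the whole gene. Overlap with other listed genes touched 15 members. It exceeded 20% of exon bases for Kdm3b (24.6%, with Gm26538 on the opposite strand) and Hdac4 (22.4%, with Gm26720 on the opposite strand). No strand setting of the counting was given, so reads of these overlapping genes may be included. By 50-base words, Setd1a shared 51.2% with Gm49388 of GENCODE M21, Suv39h1 12.2% in all, chiefly with Gm14820 on the opposite strand, and Kat5 9.83% with its opposite-strand neighbour Rnaseh2c. No exon base of Setd1a was shared with a gene listed in the deposited data. Besides Hdac1, the members with over 5% of words in pseudogenes were Kat2b (7.28%, Kat2b-ps) and Kdm2b (5.19%), both the lower of their paralog pair.

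Between the libraries, no member differed by both criteria, an adjusted p under 0.05 and at least 1.5-fold, against 2.35% of the 19433 genes tested. The test was an exact two-sided binomial test of each gene's counts, scaled by TMM factors from edgeR and adjusted by Benjamini-Hochberg over all genes tested. It compares these 2 libraries and carries counting error only, whereas edgeR put the spread between libraries over all genes at a coefficient of variation of 7.99%. By adjusted p alone, 22 members were lower in replicate 1, against 8.85% of all genes tested and 17.8% of the 6047 genes with a mean of at least 1000 counts, a depth that 48 of the members had. In the other direction 2 members, Hdac2 and Hdac3, were higher in replicate 1, against 8.65% of all and 17.3% of the deep genes. Without adjustment, 32 members had p under 0.05 by the same binomial test. No share over all tested genes was taken for that count, so it does not set the members apart. The called members that were lower in replicate 1 were 10 methyl writers, 5 methyl erasers, 4 acetyl writers, 1 acetyl eraser and 2 scaffolds, and their folds of replicate 2 over replicate 1 ran from 1.06 to 1.32.

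The largest difference belonged to Hdac9, with 271 counts in replicate 1 and 316 counts in replicate 2, a log2 ratio of -0.41 (95% interval -0.65 to -0.17, adjusted p = 0.00651 by the exact binomial test). Kat6b, with 2938 and 3238 counts, had a log2 ratio of -0.32 (adjusted p = 1.02e-16, exact binomial test). Kmt2a, with 5015 and 5446 counts, had -0.30 (adjusted p = 9.82e-25, exact binomial test). These counts are larger in the shallower library, so the direction does not hang on the scaling. Hdac9 has a deposited length of 4422 bases but an M21 exon length of 14665 bases, whereas Kat6b and Kmt2a are long by both. Other members of 8158 bases or more followed, with log2 ratios of -0.29 for Kat6a, -0.27 for Kmt2d, -0.26 for Kmt2c, -0.25 for Kdm5a, and -0.24 for Kdm6a and Ash1l. Hdac2, with 7182 and 5810 counts, had a log2 ratio of 0.12 (adjusted p = 3.64e-05, exact binomial test), and Hdac3, with 3729 and 3047 counts, had 0.11 (adjusted p = 0.0183, exact binomial test).

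The members that read lower in replicate 1 were mostly the long ones. Of the 22 called lower, 16 were over 8000 bases, a length that 20 members had. The 9 members over 12000 bases, among them Kmt2a, Kmt2c, Kmt2d, Nsd1 and Ncor1, were all lower in replicate 1, with a median log2 ratio of -0.25. Expressed protein-coding genes of that length had a median of -0.17, and 86.2% of the 355 were lower. The medians were -0.13 for 11 members and -0.08 for expressed genes between 8000 and 12000 bases, and -0.03 for both between 5000 and 8000 bases. Up to 5000 bases they were 0.04 for 12 members and 0.05 for expressed genes. Hdac9, the member with the largest difference, belongs to this shortest group by its deposited length alone. Its M21 exon length of 14665 bases would place it among those over 12000 bases. Across genes, which are not independent replicates and share both libraries, Spearman's rho between length and the log2 ratio was -0.60 over the 53 members and -0.35 over 13000 expressed protein-coding genes. Against transcript GC content it was 0.15 over the members and 0.20 over the expressed genes. The median member was 6954 bases long against 3725 for expressed genes. The liver, neuronal and urogenital marker sums given above also differed between the libraries, and their part in these differences was not tested.

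**Figure D4:**
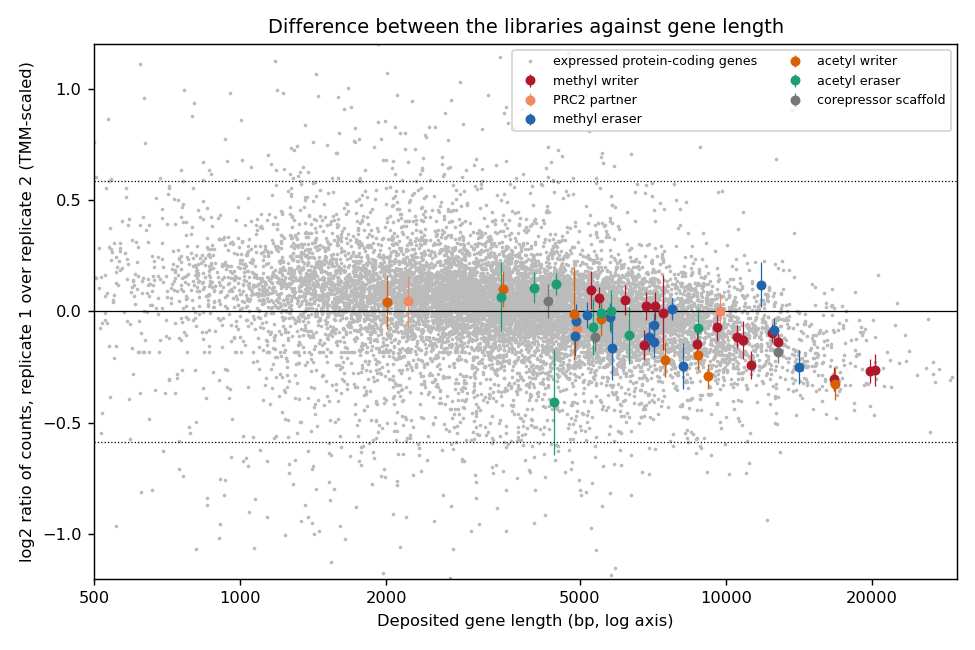
Log2 ratio of counts, replicate 1 over replicate 2 (TMM-scaled), against deposited gene length in bases (log axis) for expressed protein-coding genes (grey; a few lie outside the axes) and the members (coloured by role, with 95% counting intervals); dotted lines mark 1.5-fold. No member is past 1.5-fold, and all 9 members over 12000 bases lie below 0, as do 86.2% of expressed genes of that length.

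The partner genes of these enzymes were present as well. All 10 listed partner subunits of COMPASS complexes, some of them found in only part of these complexes, were at 10 TPM or more in both libraries. Their median was 87.2 ± 0.82 TPM (mean ± SD of the library medians, n = 2). Hcfc1, a host-cell factor that binds SET1 and MLL complexes, was the highest of them (147 TPM in replicate 1 and 175 TPM in replicate 2), and Dpy30 followed at 132 and 123 TPM. The lowest were Paxip1 (44.3 and 47.9 TPM) and Ncoa6 (35.7 and 43.0 TPM), both of the Kmt2c and Kmt2d complexes. By adjusted p, 2 of the 10 were lower in replicate 1 and 0 higher, against 8.85% and 8.65% of all tested genes and 17.8% and 17.3% of those with a mean of at least 1000 counts.

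Of 7 further PRC2 subunits, 6 were at 10 TPM or more, with a median of 51.0 ± 0.98 TPM. The histone chaperones Rbbp7 (316 and 311 TPM) and Rbbp4 (167 and 162 TPM), which many other complexes share, led them. Phf19, a Polycomb-like subunit, was the lowest at 2.95 and 3.09 TPM, below E130012A19Rik at 14.9 and 12.3 TPM. Of these 7, 1 was higher in replicate 1 by adjusted p and 0 lower, against 8.65% and 8.85% of all tested genes and 17.3% and 17.8% of the deep ones.

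All 15 deacetylase corepressor partners were at 10 TPM or more, with a median of 55.2 ± 3.42 TPM. The NuRD subunits Mta2 (186 and 187 TPM) and Mta1 (181 and 187 TPM) were highest, and Mta3 (21.2 and 19.5 TPM) and Sap18 (19.4 and 18.7 TPM) lowest. By adjusted p, 2 of the 15 were higher in replicate 1 and 0 lower, against 8.65% and 8.85% of all tested genes and 17.3% and 17.8% of the deep ones. All 17 partners of acetyl writers were at 10 TPM or more too, with a median of 35.1 ± 0.33 TPM. Trrap, the large scaffold of the SAGA and TIP60 complexes, was at 60.7 and 68.4 TPM, and Ing1 at 62.9 and 65.1 TPM. The lowest were Ing2 (20.3 and 19.0 TPM) and Ing3 (16.7 and 17.8 TPM). By adjusted p, 1 of the 17 was higher in replicate 1 and 3 lower, against 8.65% and 8.85% of all tested genes and 17.3% and 17.8% of the deep ones.

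With the deposited lengths, the other listed enzymes of related kinds had lower medians than the members of their role. These lists are selections and were chosen with earlier results known, as the members were. Of 21 other methyl writers, 15 were at 10 TPM or more, with a median of 23.5 ± 2.30 TPM. Setd8, the H4 lysine 20 monomethyltransferase, was at 70.6 TPM in replicate 1 and 70.9 TPM in replicate 2, and Smyd5 at 69.8 and 70.5 TPM. The lowest were Prdm16 (2.60 and 4.19 TPM) and the meiotic Prdm9 (1.94 and 2.52 TPM). By adjusted p, 5 of the 21 were lower in replicate 1 and 0 higher, against 8.85% and 8.65% of all tested genes and 17.8% and 17.3% of the deep ones. Of 13 other methyl erasers, 10 were at 10 TPM or more, with a median of 16.4 ± 1.3 TPM. Phf2 (94.2 and 97.9 TPM) and Jmjd6 (54.3 and 46.8 TPM) led, and Hr (1.64 and 1.49 TPM) and Kdm4d (0.288 and 0.625 TPM) were lowest. By adjusted p, 2 of the 13 were higher in replicate 1 and 2 lower, against 8.65% and 8.85% of all tested genes and 17.3% and 17.8% of the deep ones.

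Of 9 other acetyl writers, all were at 10 TPM or more, with a median of 44.9 ± 2.43 TPM. Hat1, which acetylates newly made histones, was at 83.4 TPM in replicate 1 and 77.7 TPM in replicate 2, and Naa40 at 79 and 77.2 TPM. Ncoa3 (34.4 and 35.6 TPM) and Clock (17.2 and 21.4 TPM) were lowest. By adjusted p, 2 of the 9 were higher in replicate 1 and 3 lower, against 8.65% and 8.85% of all tested genes and 17.3% and 17.8% of the deep ones. Of 9 other acetyl erasers, 8 were at 10 TPM or more, with a median of 17.5 ± 0.68 TPM. Sirt2 (60.0 and 61.5 TPM) and Hdac11 (41.4 and 46.2 TPM) led, and Sirt7 (13.3 and 12.7 TPM) and Hdac8 (9.18 and 9.98 TPM) were lowest. None of these 9 had an adjusted p under 0.05 in the exact binomial test.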

How the data were processed

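RNA from 2 wild-type PPF libraries was analysed as 1 group with replicates 1 and 2. The tools are STAR 2.4.0a, featureCounts and SAMtools 1.3, per the submitters' processing notes; settings for strand and multi-mapping reads are not given in the sources used here. Those notes name mm9 as the build, whereas the deposited positions of 19 of the 53 members matched GENCODE M21 (GRCm38) exactly; positions are given on GRCm38, and the disagreement was not resolved. The deposited counts are raw counts per gene. The deposited TPM values were computed by the authors as count over gene length scaled to a fixed sum, which recomputation matched within 4.73e-11.

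Members and gene lists were chosen with earlier results of these data known. All 53 members could be named. Of each related list the 2 highest and 2 lowest by mean TPM were named, with Whsc1, Kdm5d and Uty added after their values were seen. Gm10093 and other overlapping genes were named for shared sequence. Of the tissue marker lists, connective tissue, muscle, liver, neuronal, urogenital, erythroid and lung epithelium were examined. Levels are TPM as deposited. Libraries were compared by an exact two-sided binomial test of counts in genes with at least 10 counts over both, scaled by TMM (edgeR 4.0.16), with Benjamini-Hochberg adjustment, a threshold of 0.05 and 1.5-fold. Log2 ratios used a pseudocount of 0.5. Intervals and floors (3 counts) cover counting error only, and without molecular identifiers reads cannot be taken as independent molecules. Shared sequence was counted as 50-base words of GENCODE M21 transcripts, alignments used Biopython 1.88, and promoters came from RefSeq. The test was checked on simulated counts that held counting error only, so the check does not cover the wider spread between libraries. Alternatives included CPM, summed TPM, other scalings (DESeq2 1.42.0 size factors), thresholds and leaving out each replicate; M21 lengths and the Gm10093 corrections were chosen after seeing the data. Python 3.11.15 and R 4.3.3 were used.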

Additional observations from a re-analysis of the deposited data

How the results depend on the processing

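Of 37 alternative values, 23 stayed on the same side and within the spread or 1.5 times, 10 moved and 4 reversed. The log2 difference of medians between methyl writers and methyl erasers (-0.193 as reported) turned to 0.152 in CPM, 0.355 with summed TPM and 0.186 with M21 lengths, and was -0.101 with PRC2 partners among the writers; CPM leaves out length, M21 lengths differ from the deposited ones for some members, and the sum counts 17 writers against 13 erasers. Without 1 replicate it was -0.234 to -0.153. Between acetyl writers and acetyl erasers (0.856) it turned to -0.265 with summed TPM, and was 0.655 in CPM, 0.722 without members sharing over 20% of exon bases, 1.0 without Hdac6, 0.722 without Sirt1 and 0.237 with M21 lengths; without 1 replicate it was 0.837 to 0.876. The count of members at 10 TPM was 50 to 51 without 1 replicate, 53 at 1 TPM and 52 with TPM rescaled over genes of at least 200 bp. Paralog pairs past 1.5-fold numbered 20 to 21 without 1 replicate, 17 at 2-fold and 22 with M21 lengths. Members past 1.5-fold between the libraries numbered 0 under each scaling and without a count filter, 2 at a lower fold limit (Kat6b and Hdac9) and 24 by adjusted p alone. The split of 22 lower and 2 higher in replicate 1 was the same under TMM, DESeq2 size factors and library totals. The mean ratio of Hdac2 over Hdac1, 7.18, was 5.86 with Gm10093 counts added and 4.63 with unshared length. No paired analysis was possible because there was only 1 group. Depth was not the limit for most members, of which 48 had a mean of at least 1000 counts.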

Other observations

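The 4 X-linked members were Suv39h1, Kdm5c, Kdm6a and Hdac6. Chromosome 11 held 7 members (Ezh1, Suz12, Kdm6b, Kat2a, Kat7, Hdac5 and Ncor1), and the 53 genes lay on 20 chromosomes in all. Kdm5d and Uty, the Y-linked counterparts of Kdm5c and Kdm6a and chosen here after their values were seen, were at 14.8 TPM in replicate 1 and 16.3 TPM in replicate 2, and at 6.03 and 7.55 TPM. Neither gene differed by 1.5-fold between the libraries. By adjusted p alone, Uty was lower in replicate 1 (log2 ratio -0.29, adjusted p = 0.0321 by the exact binomial test), as were 8.85% of all tested genes.

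Across the 53 members, longer genes tended to have lower TPM (Spearman's rho -0.30, against -0.06 over 13000 expressed protein-coding genes), as a description across genes that share the same libraries and lengths. TPM is the count divided by this same deposited length, so part of the relation can be built in. For 10 members the M21 length was over 1.5 times the deposited one.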
